A study of Mus musculus with 36 samples.

Results

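All replication timing (RT) domains of mouse chromosome 13 are described here in 3 deposited domain maps, 426 domains in all. The map of shLacZ CH12 cells held 150 of its 2625 domains on this chromosome, the map of WT primary B cells 140 of 2661, and a map named for mouse embryonic fibroblasts (MEFs) 136 of 2151. Chromosome 13 was selected on its measured values, as the autosome with the lowest share of 20 kb bins in the same state in the CH12 and primary B maps, so everything that compares those maps is given as a description with no test.

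RT was measured by Repli-seq in 36 libraries of 7 groups. The groups used here are CH12 shLacZ and primary B WT, whose domain maps rest on 8 libraries. CH12 is a mouse B cell lymphoma line. The shLacZ cells carried a lentiviral short hairpin RNA against the bacterial LacZ gene as an infection control. The primary B cells were activated splenic B cells of WT mice. The labels give the same culture with IL4, CD40 and TGF beta stimulation for both groups, in words that name only CH12 cells. Each of these groups had 2 early and 2 late S phase libraries, which the authors merged before states were called, so each condition has 1 map and no value below has a replicate error. The labels tie the MEF map to no sample, and the study's supplement lists MEF Repli-seq as an earlier public dataset. CH12 is a single tumour line, and the maps average over many cells, so a region replicated in mid S phase in every cell and one replicated early in some cells and late in others cannot be told apart.

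Mammalian chromosomes replicate in large domains, each at a reproducible time in S phase. In Repli-seq, nascent DNA from early and late S phase fractions is sequenced, and their log2 ratio gives the RT value of a window. Early-replicating chromatin is usually gene-rich, accessible and transcribed, late-replicating chromatin is usually gene-poor and lies at the nuclear periphery, and many developmental genes change RT between cell types. Here each bin belongs to an early (E), middle (M) or late (L) state, with M nearest to equal early and late reads. The deposited state numbers were named E, M and L by the rule that defined the chromosome's domains. The GC content of chromosome 13 bins followed those names in each map. CH12 E bins had 44.3% GC, M bins 42.2% and L bins 40.1%. The values were 43.8%, 41.7% and 39.6% in primary B cells, and 43.8%, 41.1% and 39.1% in the MEF map.

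Chromosome 13 was 120284312 bases long in the mm9 build, or 6015 bins. The CH12 and MEF maps gave every bin a state, and the primary B map left 150 bins at the centromeric end without one, all of them wholly unknown bases that the other maps called M. The 5865 bins with a state in all maps were compared. Wilson 95% intervals below cover counting over bins or genes only, neighbouring bins are not independent, and read depth is unknown from the maps.

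The range of gene starts on the chromosome is shown by the 300 bases of mm9 before the annotated start of 7 genes, read 5′ to 3′ on the gene's strand, with each CpG dinucleotide in capitals and none of them overlapping an annotated exon. They were chosen to show different state patterns, given in the order CH12, primary B and MEF. *Gmnn* encodes geminin, which blocks a second licensing of origins, and *Irf4* a transcription factor of activated B cells and plasma cells, and both starts were E in all maps. *Pik3r1*, the regulatory subunit of PI 3-kinase, and *Mef2c*, a transcription factor of muscle, brain and B cells, were M, E and M. *F2r*, the thrombin receptor, was L, E and E. *Fgf10*, a growth factor of lung and limb buds, was M, L and M. *Vmn1r200*, a vomeronasal pheromone receptor, was L in all maps.
*Gmnn* (mm9 chr13:24853793-24854092, minus strand): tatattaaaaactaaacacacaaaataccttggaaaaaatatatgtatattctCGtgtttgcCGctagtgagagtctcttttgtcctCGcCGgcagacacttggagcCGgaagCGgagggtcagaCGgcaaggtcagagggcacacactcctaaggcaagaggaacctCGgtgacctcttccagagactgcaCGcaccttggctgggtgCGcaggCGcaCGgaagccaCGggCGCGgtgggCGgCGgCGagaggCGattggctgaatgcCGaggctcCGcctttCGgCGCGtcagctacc
*Irf4* (mm9 chr13:30840795-30841094, plus strand): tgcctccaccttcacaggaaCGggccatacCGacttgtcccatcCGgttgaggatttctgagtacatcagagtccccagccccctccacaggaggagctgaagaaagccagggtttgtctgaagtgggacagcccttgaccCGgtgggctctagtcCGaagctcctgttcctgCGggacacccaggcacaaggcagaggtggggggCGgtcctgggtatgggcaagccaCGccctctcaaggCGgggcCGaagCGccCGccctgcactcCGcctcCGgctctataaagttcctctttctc
*Pik3r1* (mm9 chr13:102538173-102538472, minus strand): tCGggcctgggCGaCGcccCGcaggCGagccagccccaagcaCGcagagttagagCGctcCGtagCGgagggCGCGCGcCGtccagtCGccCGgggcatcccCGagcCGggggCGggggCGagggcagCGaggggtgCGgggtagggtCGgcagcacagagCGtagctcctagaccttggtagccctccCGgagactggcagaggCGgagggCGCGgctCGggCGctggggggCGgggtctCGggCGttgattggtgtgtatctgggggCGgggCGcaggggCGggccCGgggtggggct
*Mef2c* (mm9 chr13:83642733-83643032, plus strand): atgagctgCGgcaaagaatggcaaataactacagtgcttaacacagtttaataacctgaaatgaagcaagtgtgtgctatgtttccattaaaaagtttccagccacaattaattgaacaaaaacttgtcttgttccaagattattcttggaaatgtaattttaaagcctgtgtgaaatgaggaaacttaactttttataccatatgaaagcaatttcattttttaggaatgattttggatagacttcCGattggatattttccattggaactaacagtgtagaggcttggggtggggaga
*F2r* (mm9 chr13:96388415-96388714, minus strand): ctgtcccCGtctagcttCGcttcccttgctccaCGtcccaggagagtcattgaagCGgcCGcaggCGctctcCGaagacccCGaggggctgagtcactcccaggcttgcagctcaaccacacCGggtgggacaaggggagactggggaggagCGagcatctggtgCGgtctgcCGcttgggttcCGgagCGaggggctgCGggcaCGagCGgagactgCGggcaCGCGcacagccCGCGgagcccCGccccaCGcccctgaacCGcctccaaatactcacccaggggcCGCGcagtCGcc
*Fgf10* (mm9 chr13:119458298-119458597, plus strand): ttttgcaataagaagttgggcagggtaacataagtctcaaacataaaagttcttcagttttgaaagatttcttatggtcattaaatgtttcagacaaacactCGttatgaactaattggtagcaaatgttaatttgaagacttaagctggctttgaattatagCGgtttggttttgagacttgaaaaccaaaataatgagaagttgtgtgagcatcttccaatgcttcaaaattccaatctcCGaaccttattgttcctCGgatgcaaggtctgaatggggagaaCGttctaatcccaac
*Vmn1r200* (mm9 chr13:22486516-22486815, plus strand): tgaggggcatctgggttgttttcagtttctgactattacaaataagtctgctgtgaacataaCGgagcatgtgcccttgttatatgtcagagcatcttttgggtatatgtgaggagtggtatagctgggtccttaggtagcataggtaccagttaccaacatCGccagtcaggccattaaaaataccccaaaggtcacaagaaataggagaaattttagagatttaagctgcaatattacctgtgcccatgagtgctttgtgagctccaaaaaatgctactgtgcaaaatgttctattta
The CpG count of these windows ranged from 2 at *Mef2c* and *Vmn1r200* to 36 at *Pik3r1*, with 24 at *Gmnn*, 14 at *Irf4*, 28 at *F2r* and 5 at *Fgf10*. *Pik3r1* and *Mef2c* shared the same 3 states with 76.3% and 34.7% GC in the window. Over all 866 protein-coding gene starts of the chromosome the median was 9 CpG in 300 bases. Gene starts E in all maps had a median of 17.5 CpG (174 genes), those M in all maps 9 (185 genes) and those L in all maps 2 (59 genes). Starts that were L in CH12 cells and M in primary B cells had a median of 7 CpG (89 genes), above the 2 of starts that were L in both (119 genes). Starts that were M and then E had 11 (147 genes), near the 10 of starts that stayed M (265 genes). These medians are over neighbouring genes of shared families and are descriptions.

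The first question was how chromosome 13 divides between RT states. In CH12 cells, 18.01% of its bins were E (Wilson 95% interval 17.04 to 19.01%), 36.9% M (35.6 to 38.1%) and 45.2% L (43.9 to 46.4%). In primary B cells, 26.3% were E (25.2 to 27.5%), 43.6% M (42.3 to 44.9%) and 30.1% L (28.9 to 31.3%). In the MEF map, 32.6% were E (31.4 to 33.8%), 47.4% M (46.1 to 48.7%) and 20.02% L (19.01 to 21.1%). The L share was thus highest in CH12 cells and lowest in the MEF map, and the E and M shares ran the other way. The M share of chromosome 13 was the highest of the 19 autosomes in each map. The next highest were chromosome 18 with 34.4% in CH12 cells, chromosome 19 with 41.2% in primary B cells and chromosome 10 with 43.8% in the MEF map. Counted from the lowest autosome, its E share ranked 4, 7 and 9 in the CH12, primary B and MEF maps, and its L share 4, 3 and 3.

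The order of domains can be followed along the chromosome in windows of 10 Mb, counted from the centromeric end. The 2 windows up to 20 Mb were mostly L in CH12 cells, with 68.9% and 62.2% L bins, against 41.1% and 34.6% in primary B cells and 27.7% and 30.2% in the MEF map. The window from 20 to 30 Mb holds the histone, vomeronasal receptor and prolactin clusters and had the most protein-coding gene starts, 174. It was 73.8% M in the MEF map against 43.4% in CH12 cells and 45.2% in primary B cells. The windows from 30 to 60 Mb were the part richest in E in both B cell maps. E bins made up 46%, 39.4% and 47.8% of these windows in CH12 cells, 48.0%, 57.2% and 52.4% in primary B cells, and 45%, 56.8% and 61.8% in the MEF map, and GC content reached its highest value, 46.1%, in the window from 50 to 60 Mb. From 60 to 90 Mb the chromosome was mostly L in CH12 cells, with 64.4%, 61.4% and 77.4% L bins and no E bin from 70 to 90 Mb. The window from 80 to 90 Mb had the lowest GC content, 37.7%, and the fewest gene starts, 17. From 90 to 110 Mb M dominated in both B cell maps, at 61.6% and 56.2% in CH12 cells and 60.8% and 60.4% in primary B cells. The MEF map was 55.2% and 41.0% E there and 42.2% E from 110 to 120 Mb, so that its E-rich windows were not limited to 30 to 60 Mb. The last full window, from 110 to 120 Mb, was 59.8% L in CH12 cells, 37.0% L in primary B cells and 13.2% L in the MEF map.

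**Figure D1:**
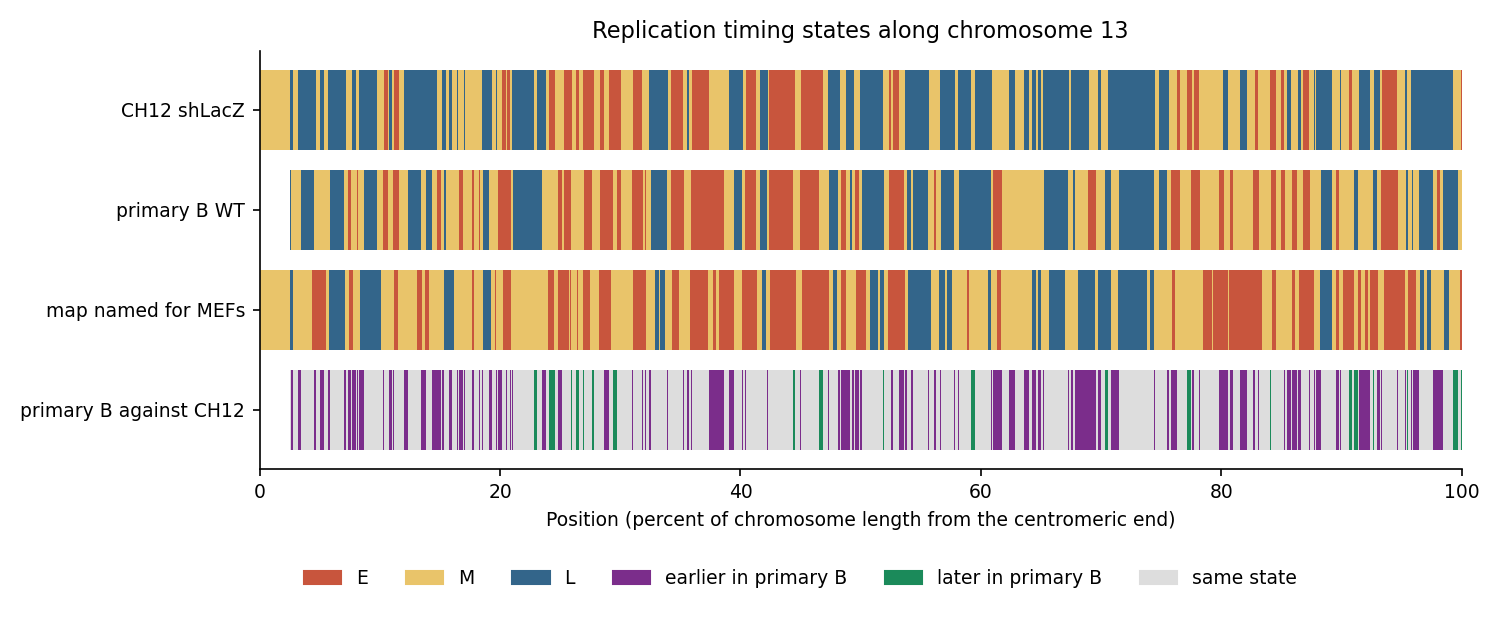
States of the 20 kb bins of chromosome 13 in the 3 maps (E red, M yellow, L blue) and, in the lowest lane, bins in an earlier (purple) or later (green) state in primary B than in CH12 cells. The horizontal axis is the position in percent of chromosome length from the centromeric end, and white marks the 150 bins with no primary B state. The E-rich stretch of the B cell maps lies left of the middle, and 1608 bins are purple against 267 green.

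The chromosome was finely divided. It had 1.25 domains per Mb in CH12 cells, 1.16 in primary B cells and 1.13 in the MEF map, each the highest value of the 19 autosomes. The nearest was chromosome 9 in both B cell maps, with 1.23 and 1.161 beside the 1.164 of chromosome 13, and chromosome 12 in the MEF map, with 0.981. In CH12 cells the median length of the 28 E domains was 520 kb, of the 75 M domains 480 kb and of the 47 L domains 740 kb. In primary B cells it was 560 kb for 39 E, 530 kb for 70 M and 860 kb for 31 L domains. The MEF map had 42, 68 and 26 with medians of 720, 550 and 530 kb. On the 18 other autosomes L domains had medians of 1120, 920 and 980 kb in the same order of maps, and M domains of 370, 440 and 620 kb. E domains there had medians of 700, 760 and 980 kb. Over all domains of chromosome 13 the median was 520, 580 and 560 kb, rank 6, 8 and 1 from the shortest autosome. By median length the chromosome thus stood out only in the MEF map. In CH12 cells, 32 of 74 M domains with a neighbour on each side (43.2%) lay between 2 L domains and 29 (39.2%) between an E and an L domain. On the other autosomes those shares were 28.0% and 55.6%. The other maps did not share this: M domains between 2 L domains were 15.9% in primary B cells (21.4% elsewhere) and 17.9% in the MEF map (20.7% elsewhere).

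The longest L domain of each map lay in the same gene-poor region. It measured 4680 kb in CH12 cells (chr13:84880001-89560000), 3580 kb in primary B cells (chr13:85960001-89540000) and 2900 kb in the MEF map (chr13:85880001-88780000). The CH12 domain overlapped 6 protein-coding genes, among them *Ccnh*, *Rasa1*, *Cox7c* and *Edil3*, and 194 of its 234 bins were L in primary B cells and 181 in the MEF map. The longest E domain of CH12 cells (chr13:51020001-53560000, 2540 kb) overlapped 16 genes, among them *Spin1*, *S1pr3*, a sphingosine-1-phosphate receptor, *Shc3* and *Cks2*, a subunit of cyclin-dependent kinases. Of its 127 bins, 116 were E in primary B cells and 125 in the MEF map. The longest E domain of primary B cells (chr13:43140001-46440000, 3300 kb) overlapped 18 genes, among them *Phactr1*, *Sirt5* and *Ranbp9*. Of its 165 bins, 87 were E and 78 M in CH12 cells. The longest E domain of the MEF map (chr13:97040001-100300000, 3260 kb) overlapped 31 genes, among them *Polk*, a translesion DNA polymerase, and *Poc5*, a centriole protein. Of its 163 bins only 14 were E in CH12 cells and 40 in primary B cells, and 114 and 123 were M. The longest M domain of the MEF map (chr13:25140001-28820000, 3680 kb) held *Prl* and most of its relatives, and 159 of its 184 bins were L in CH12 cells and 141 in primary B cells. The longest M domain of primary B cells (chr13:74260001-78540000, 4280 kb) overlapped 28 genes, starting with *Slc9a3*, *Exoc3* and *Ahrr*, and was 124 bins M and 90 bins L in CH12 cells. The longest M domain of CH12 cells was the 3000 kb of unknown bases at the centromeric end, which hold no gene.

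The second question was where the CH12 and primary B maps differ. They placed 3990 of 5865 bins in the same state, 68.03% (66.8 to 69.2%), the value by which the chromosome was chosen. Just above it, outside the rule, lay chromosome 19 with 68.25% and chromosome 18 with 71.1%, and the highest was chromosome 17 with 80.8%. Chromosomes 13 and 19 were thus nearly tied. With bins of wholly unknown bases left out, chromosome 19 was the lower, at 66.8% against 67.8%. Cohen's kappa, which allows for the state shares, was 0.513 on chromosome 13 and 0.515 on chromosome 3, the next lowest. The 1875 bins in different states were 32.0% of the chromosome, beside 23.9% of bins over all 20 chromosomes.

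The difference in called states ran mostly 1 way. On chromosome 13, 1608 bins (27.4%) had an earlier state in primary B than in CH12 cells, beside 20.3% over all chromosomes, and 267 (4.55%) in a later state, beside 3.62%. Earlier bins were 85.8% of the differing bins here and 84.5% on the 18 other autosomes. Almost every differing bin moved by a single step. The change from L in CH12 to M in primary B covered 963 bins, 51.4% of those that differed, and the change from M to E 615 bins, 32.8%. On the 18 other autosomes these changes made up a like 52.3% and 29.2% of differing bins. A jump from L to E covered 30 bins, 0.512% of the chromosome, beside 0.643% over all chromosomes, and no bin went from E to L. RT limits between states are unknown and can differ between maps, so whether RT itself was earlier was not tested. The paper describes WT primary B cells as having relatively fewer early domains than shLacZ CH12 cells, and more middle ones. The paper refers there to density profiles of RT values. Shares of called states are another measure, so they do not test that description. By called state, E bins were commoner in primary B cells, at 26.3% against 18.01%, and at 29.9% against 24.6% on the 18 other autosomes. M bins of chromosome 13 were commoner too, at 43.6% against 36.9%.

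Bins of each CH12 state were kept to different degrees. Of the 2648 L bins of CH12 cells, 62.5% were L in primary B cells, against 74.2% on the 18 other autosomes, and this was the lowest share of any autosome but chromosome 19 (43.5%). Of the 1056 E bins, 85.1% were E in primary B cells, against 91.05% elsewhere, rank 3 from the lowest. Of the 2161 M bins, 66.5% stayed M, against 67.6% elsewhere, and lay within the range of the other autosomes. With the state shares of chromosome 13 in CH12 cells and the kept share of each state on the other autosomes, the agreement would be 74.8%. By that reckoning, 1.86 of the 8.62 points between chromosome 13 and the other autosomes (76.7%) lay in the state shares and 6.76 in the kept shares. Reckoned from the primary B states instead, the agreement would be 72.4%, with 4.25 points in the state shares and 4.37 in the kept shares. The split thus depended on which map it started from.

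**Figure D2:**
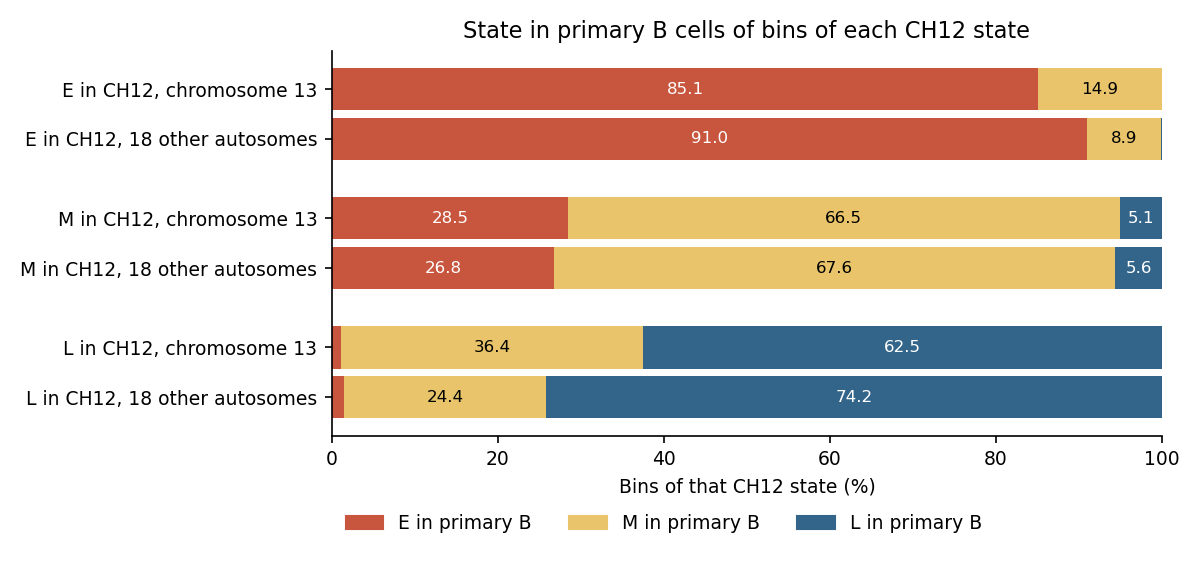
Stacked bars give, for bins of each CH12 state, the percent that were E (red), M (yellow) or L (blue) in primary B cells, on chromosome 13 and on the 18 other autosomes. L bins of chromosome 13 were M in primary B cells more often (36.4% against 24.4%), while the M bars are alike.

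The MEF map was not used by the rule, although it is compared with maps that were. Chromosome 13 had the lowest agreement of the 19 autosomes in both comparisons with it. CH12 and MEF maps shared the state of 52.4% of bins (51.1 to 53.6%), with chromosome 3 next at 53.5% and chromosome 11 highest at 70.7%, and 47.6% of bins differed beside 37.2% over all chromosomes. Primary B and MEF maps shared 59.8% (58.5 to 61.0%), with chromosome 6 next at 63.4%, and 40.2% of bins differed beside 31.4%. By kappa, chromosome 13 was the lowest between primary B and MEF (0.379, next chromosome 3 with 0.445) and second lowest between CH12 and MEF (0.296, chromosome 3 with 0.280). All maps gave the same state to 42.3% of bins, against 46.6 to 63.7% on the other autosomes. All gave different states to 4.33%, second to the 4.50% of chromosome 3. The window from 90 to 100 Mb had the lowest agreement of CH12 and MEF maps, 24.0%, since 61.6% of it was M in CH12 cells and 55.2% was E in the MEF map. Between CH12 and primary B maps, window values ran from 59.60% (110 to 120 Mb) to 77.4% (30 to 40 Mb).

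Fine division puts more bins near a domain boundary. On chromosome 13, 24.8% of bins lay within 100 kb of a CH12 boundary, against 19.6% on the other autosomes, while the share of differing bins that lay there was alike, 35.5% and 36.4%. When bins closer than that to a boundary of the CH12 or primary B map were left out, 77.4% of the remaining bins agreed between CH12 and primary B cells, second lowest after chromosome 19 (75.3%), and with the boundaries of the maps compared left out, chromosome 13 remained the lowest in both comparisons with the MEF map (55.7% and 63.8%).

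**Figure D3:**
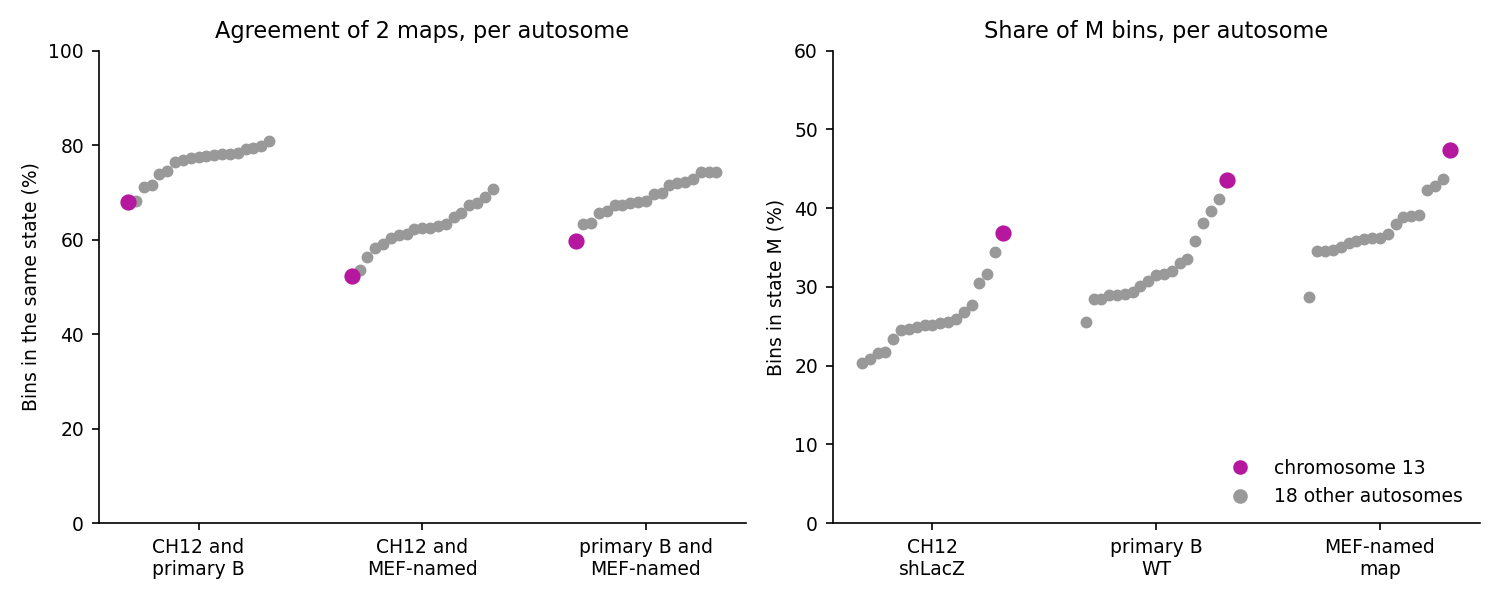
Left, percent of bins in the same state for each pair of maps, and right, percent of M bins in each map, with 1 point per autosome ordered by value and chromosome 13 in magenta. Chromosome 13 has the lowest point in each pair, barely so for CH12 and primary B (68.03% beside 68.25%), and the highest M share in each map.

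At the level of whole domains, 14 of the 28 CH12 E domains were E throughout in primary B cells, 10 in part and 4 not at all (50.0% and 14.3% for the first and last, against 54.8% and 9.04% elsewhere). No CH12 L domain of the 47 was L throughout, as were only 3.27% elsewhere, 27 were in part and 20 (42.6%) had no L bin in primary B cells. On the other autosomes 24.7% of L domains had none. In the reverse direction, 18 of 39 E domains of primary B cells (46.2%) had no E bin in CH12 cells, against 27.5% elsewhere, whereas 23 of 31 L domains of primary B cells were L throughout in CH12 cells (74.2%, against 75.2% elsewhere). Primary B L domains thus mostly lay inside CH12 L domains, here as elsewhere. The 4 CH12 E domains lost in primary B cells hold *Sox4* and *Cdkal1*, *Foxf2* and *Foxc1*, a start of *Pde4d*, and the distal end of the chromosome with *Paip1*. Another record of *Pde4d* starts outside that domain and was L in CH12 and M in primary B cells.

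The 1875 differing bins formed 144 runs of 1 class each. There were 68 runs from L to M with a median of 220 kb, 48 from M to E (150 kb), 16 from E to M (150 kb), 8 from M to L (280 kb) and 4 from L to E (140 kb). Of all runs, 92 (63.9%) were shorter than the 300 kb over which the authors smoothed the RT values, against 72.4% on the other autosomes.

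The longest run from L to M (chr13:81640001-82880000, 1240 kb) overlapped *Gpr98*, an adhesion receptor of sensory cells, *Lysmd3*, *Polr3g*, a subunit of RNA polymerase III, *Mblac2* and *Cetn3*, a centrin. In the MEF map 50 of its 62 bins were L. It was followed without a gap by a run from L to E of 120 kb and by the run from M to E that ranked 3 in length (chr13:83000001-83720000, 720 kb), which overlapped *Mef2c* alone. Together these runs marked an E domain of primary B cells of 840 kb that reached from -763 kb to 77.0 kb relative to the *Mef2c* start, with no E bin there in either other map. Around the *Mef2c* start, CH12 cells had an M domain of 940 kb and the MEF map an M domain of 300 kb, with L from -1763 to -43.0 kb.

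**Figure D4:**
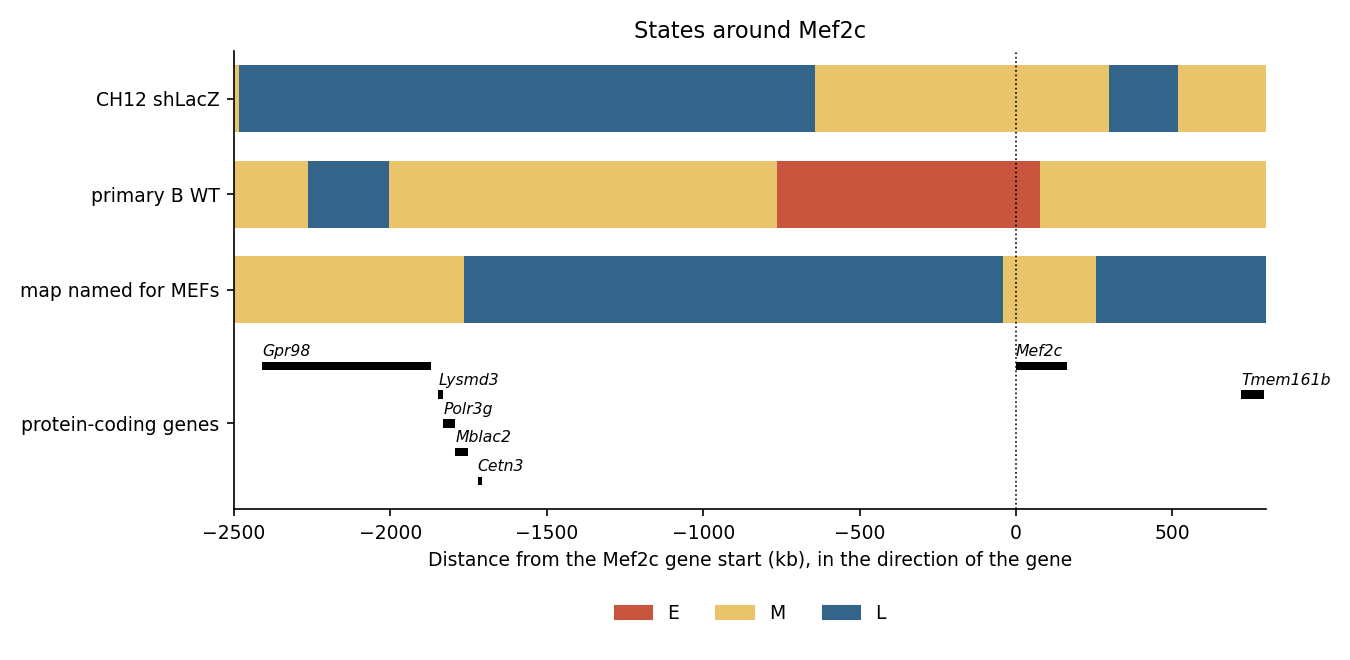
Domains around *Mef2c* in the 3 maps (E red, M yellow, L blue) against the distance in kb from the gene start, with protein-coding genes as black bars. Only the primary B map has an E domain, from -763 to 77.0 kb, in a stretch without other annotated protein-coding genes.

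The second longest run from L to M (chr13:110000001-111100000, 1100 kb) overlapped *Pde4d*, a cAMP phosphodiesterase, *Rab3c* and *Gm5455*, and was 20 bins E and 35 bins M in the MEF map. The third (chr13:85180001-85960000, 780 kb) held *Ccnh*, the cyclin of the CDK-activating kinase, and *Rasa1*, a GTPase-activating protein of Ras, and 35 of its 39 bins were M in the MEF map. The longest run from M to E (chr13:44980001-46440000, 1460 kb) overlapped 9 genes, among them *Jarid2*, a partner of Polycomb repressive complex 2, *Dtnbp1*, *Mylip*, *Gmpr* and *Atxn1*. The *Jarid2* start itself lay before the run and was E in all maps. In the MEF map 39 of its 73 bins were E and 34 M. The second (chr13:73420001-74260000, 840 kb) held 18 genes, among them *Tert*, the telomerase reverse transcriptase, *Slc6a3*, the dopamine transporter, *Clptm1l* and *Lpcat1*, and was 20 bins E and 22 M in the MEF map.

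The 4 runs from L to E were short. The longest (chr13:117780001-118080000, 300 kb) overlapped *Parp8*, *Gm17509* and *Emb*, a chaperone of monocarboxylate transporters, inside a CH12 L domain of 4140 kb, and its 15 bins were M in the MEF map. The second (chr13:96380001-96540000, 160 kb) overlapped *F2r*, *F2rl2*, another receptor of the thrombin receptor family, and *Iqgap2*, and its 8 bins were E in the MEF map.

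Runs to a later state in primary B cells were fewer. The longest from M to L (chr13:119400001-119960000, 560 kb) overlapped *Fgf10* alone and was M throughout in the MEF map. The second (chr13:71140001-71600000, 460 kb) overlapped no protein-coding gene, and the third (chr13:109560001-109920000, 360 kb) lay in *Pde4d*. The longest from E to M (chr13:29000001-29520000, 520 kb) held *Sox4*, a transcription factor of lymphoid and neural progenitors, and *Cdkal1*, and 21 of its 26 bins were E in the MEF map. Next came runs of 400 kb at 3 places. That at chr13:56000001-56400000 held *H2afy*, a macroH2A histone, *Neurog1*, a neuronal factor, and *Cxcl14*, a chemokine, and was E in all 20 bins of the MEF map. That at chr13:92780001-93180000 overlapped *Rasgrf2*, an exchange factor of Ras family GTPases, and *Msh3*, a mismatch repair protein, and was M throughout in the MEF map. That at chr13:35360001-35760000 lay in *Cdyl* and was M throughout in the MEF map.

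Where CH12 and primary B cells differed, the MEF map had the primary B state in 1028 of 1875 bins (54.8%), the CH12 state in 593 (31.6%) and the remaining state in 254 (13.5%). On the other autosomes these shares were 58.0%, 30.7% and 11.3%. Of the 963 bins that were L in CH12 and M in primary B cells, 584 (60.6%, against 65.5% elsewhere) were M in the MEF map, 199 E and 180 L. Of the 615 bins that went from M to E, 342 (55.6%, against 59.3% elsewhere) were E, 243 M and 30 L, the last all in the *Mef2c* run. Of the 110 bins that went from M to L, 20 (18.2%, against 35.3% elsewhere) were L in the MEF map. The bins that both B cell maps called L were L in the MEF map in 862 of 1655 cases (52.1%), against 67.8% on the other autosomes, and bins called E by both were E in 79.6%, against 88.1%.

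GC content and gene density of chromosome 13 differed between the classes of bins. Bins L in both B cell maps had 39.6% GC and 3.60 protein-coding gene starts per Mb, and bins that went from L to M had 40.8% and 4.62. Bins M in both had 42.1% and 9.23, bins that went from M to E 43.0% and 12.0, and bins E in both 44.5% and 11.6. GC content was thus higher with each class in this order, while gene density was no higher in bins E in both than in bins that went from M to E. The 110 bins that went from M to L had 39.3% GC and 3.18 starts per Mb, below bins L in both, and the 30 bins that went from L to E had 41.5% GC and held 6 starts in all. On the other autosomes bins E in both maps held 20.2 starts per Mb at 45.99% GC. The E bins of chromosome 13 were thus poorer in genes, while bins M in both maps were not (8.74 starts per Mb elsewhere). The chromosome as a whole had 866 protein-coding genes, 7.44 per Mb of known bases, the sixth lowest density of the 19 autosomes.

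Gene starts accordingly lay in M chromatin more often than on other chromosomes. In CH12 cells 26.9% of the 866 starts were E (24.1 to 29.96%), 48.4% M (45.1 to 51.7%) and 24.7% L (21.9 to 27.7%), against 52.8%, 26.0% and 21.1% on the other autosomes. In primary B cells 41.7% were E (38.5 to 45%), 43.8% M (40.5 to 47.1%) and 14.6% L (12.4 to 17.1%), and in the MEF map 43.5%, 47.0% and 9.47%. The E share was the lowest and the M share the highest of the 19 autosomes in each map. Part of this lay in 7 clustered gene families. With their 188 genes left out, and the same families left out elsewhere, the E share was 32.5%, 48.4% and 53.8% in the 3 maps and ranked 1, 3 and 4 from the lowest. The M share, 47.2%, 41.9% and 39.4%, stayed highest in both B cell maps and was second highest, after chromosome 18, in the MEF map.

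The state at the gene start was the same in CH12 and primary B cells for 592 genes (68.4%), and 31.6% differed, beside 21.5% over all chromosomes. It was earlier in primary B cells for 242 genes (27.9%), beside 18.8%, and later for 32. By CH12 state, 35.1% of M starts were E in primary B cells and 41.6% of L starts were M, close to the 33.6% and 40.2% of the other autosomes. Of E starts, 89.3% stayed E, against 95.7%. At 72 genes (8.31%) the primary B state was earlier than that of both other maps, beside 6.09% over all chromosomes.

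Neighbouring genes of a family often shared a state, although most families were split between states. Of 55 histone cluster genes, which supply histones in S phase, 40 were M in all maps. The other starts were the 6 from *Hist1h2be* to *Hist1h4c*, L in CH12 and M in the other maps, the 8 from *Hist1h2ab* to *Hist1h2aa*, E in primary B cells alone, and the isolated *Hist1h2al*, E in all. Of 25 prolactin family genes, hormones of the placenta, 15 were L in both B cell maps and M in the MEF map, 6 were M in CH12, L in primary B and M in MEF, and all 25 were M in the MEF map. The 8 *Akr1c* genes, reductases of steroids, were likewise L in CH12 cells and M in the MEF map, with 2 of them M in primary B cells. Of 37 vomeronasal receptor genes 21 were L in all maps, 12 were L in CH12 and M in primary B cells, and 4 were M in all. The 12 lay at the edges of the *Vmn1r* cluster, so that the L block around it was narrower in primary B cells. Of 10 cathepsin genes, proteases that include a placental cluster, 8 were L in all maps, and *Ctsl*, the widely expressed member outside the cluster, was M in CH12 and E in both other maps. Of 38 zinc finger protein genes, mostly presumed repressors, 21 were M in all maps and 13 went from M to E, 9 of them from *Zfp953* to *Zfp748* in 1 block. Of 15 clade B serpin genes, inhibitors of intracellular proteases, 11 were E in CH12 cells, 9 in primary B cells and 6 in the MEF map, and none was L. The neighbouring genes of a family share domains and are not separate observations.

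Among 17 genes listed as B cell and lymphoid, 6 (35.3%, beside 27.9% of all starts of the chromosome) were earlier in primary B cells and none was later. The 6 include *Emb* and *Rasa1*, whose functions given above are not particular to lymphoid cells. E starts numbered 14 in primary B cells, 13 in the MEF map and 9 in CH12 cells. Over all starts of the chromosome the E shares were 41.7%, 43.5% and 26.9% in that order. *Irf4*, *Ly86*, *Jarid2*, *S1pr3*, *Gadd45g*, *Nfil3*, *Map3k1*, *Il6st* and *Serpinb1a* were E in all maps. *Pik3r1* and *Mef2c* were M, E and M. *Cd180*, a Toll-like receptor homologue of B cells, and *Gzma*, a granzyme, were M in CH12 and E in both other maps. *Emb* was L, E and M, and *Rasa1* was L, M and M. *Il9*, an interleukin, and *Gzmk* were M in both B cell maps and E in the MEF map.

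Among 24 genes of replication, cell cycle and DNA repair, 8 (33.3%) were earlier in primary B cells and 2 later. *Gmnn*, *Cks2*, *Fancc*, *Rad17*, *Cdk7*, *Cenph*, *Ccnb1* and *Cenpk* were E in all maps. *E2f3*, a transcription factor of S phase entry, *Cdc14b*, *Tert* and *Polk* were M in CH12 and E in both other maps. *Dek*, *Cetn3*, *Polr3g* and *Ccnh* went from L to M. *Msh3* was E in CH12 cells and M in both other maps. *Xrcc4*, which acts in end joining, was L in both B cell maps and M in the MEF map.

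Of 21 records of developmental transcription factor genes, 3 were earlier and 4 later in primary B cells. Of all 866 starts of the chromosome, 242 were earlier and 32 later. The later records of the list were *Foxf2* and *Foxc1*, which shared a CH12 E domain, and both records of *Sox4*. *Isl1* was L in all maps, *Gli3*, an effector of Hedgehog signalling, and *Irx1* and *Irx2* were L in both B cell maps and M in the MEF map, and *Msx2*, *Otp* and *Foxd1* were M in both and E in the MEF map. Of 18 secreted signalling and receptor genes, 5 were earlier and 3 later, and 15 were E in the MEF map against 5 in CH12 cells. Of all starts of the chromosome, 43.5% were E in the MEF map and 26.9% in CH12 cells. *Inhba*, a subunit of activins, was L, L and E, *Gas1* L, M and E, and *Bmp6*, *Tgfbi*, *Fst*, *Smad5* and *Esm1* M, M and E. *F2rl1*, beside *F2r*, was M, E and E.

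Of 21 neuronal gene records 14 (66.7%) were earlier in primary B cells and 2 later, the largest share among the 13 lists. The list was not restricted to genes particular to neurons. It holds an earlier and a later record of *Pde4d*, whose function given above is not particular to neurons. *Edil3* is counted in the matrix list too. The earlier ones included *Slc6a3*, *Drd1a*, a dopamine receptor, *Homer1* and *Elmo1*, each M, E and M, and *Ntrk2*, the receptor of brain-derived neurotrophic factor, *Phactr1*, *Sv2c* and *Rgs7bp*, each L, M and M. *Htr1a* was L in all maps, and *Edil3* was L, L and M. Of 17 matrix and adhesion genes, 6 were earlier and none later, and 11 were E in the MEF map against 4 in CH12 cells. *Itga2* and *Iqgap2* were L, M and E, *Itga1* and *Spock1* L, M and M, and *Vcan* and *Hapln1* M in all maps. The lists were chosen with earlier results of these data known, and several hold neighbours of 1 domain. Their shares are read only as descriptions beside those of all starts of the chromosome. Of all starts, 27.9% were earlier in primary B cells, and 26.9%, 41.7% and 43.5% were E in the CH12, primary B and MEF maps.

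**Figure D5:**
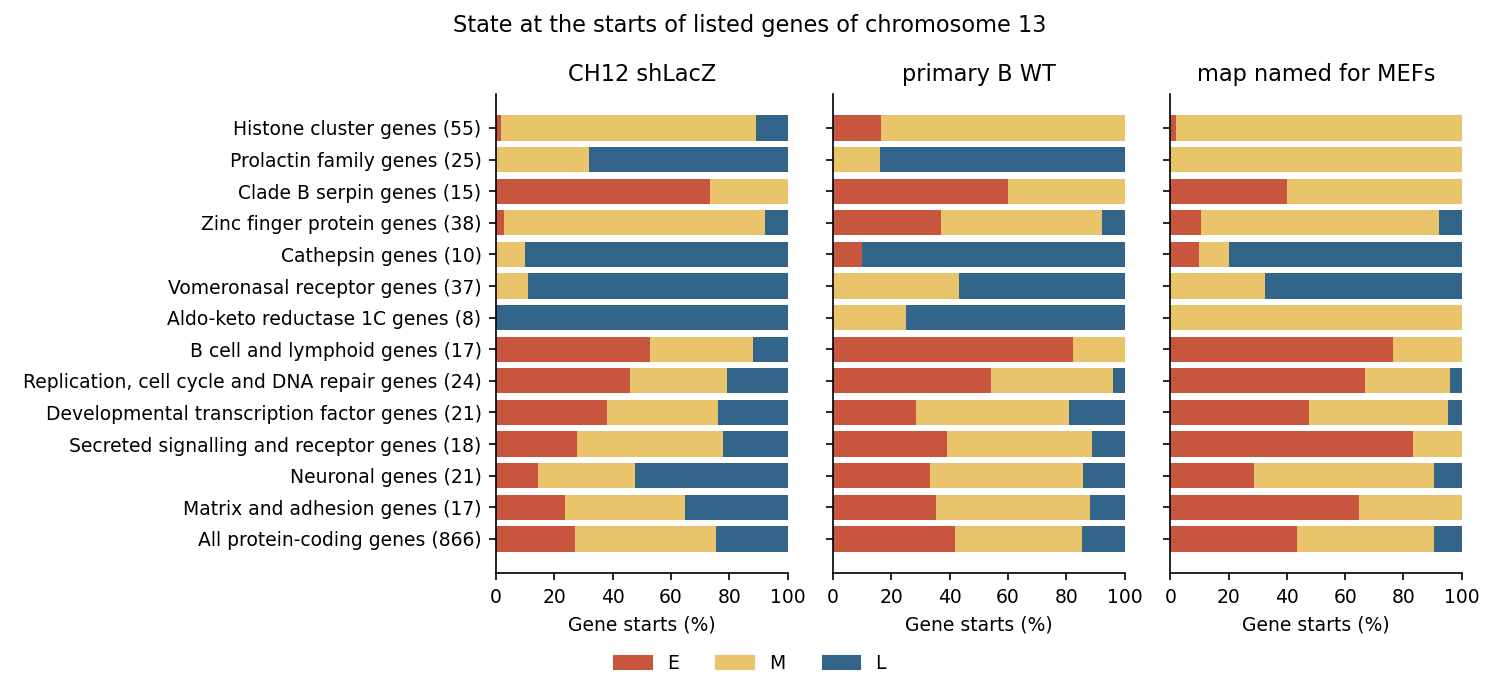
Percent of gene starts in E (red), M (yellow) and L (blue) chromatin in each map for the listed groups of chromosome 13 genes and for all 866 protein-coding genes, with the number of gene records in parentheses. Cathepsin and vomeronasal receptor genes are mostly L in every map, histone genes mostly M, and all prolactin and *Akr1c* genes are M in the MEF map while most are L in both B cell maps.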

How the data were processed

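Per the authors' methods and processing notes, Repli-seq reads were trimmed (Trim Galore 0.6.5), aligned to mm9 with BWA 0.7.17 and filtered for unique alignments. Replicates were merged, duplicates removed, and log2 early over late coverage in windows of 20 kb (deepTools) was smoothed by loess over 300 kb and then split by a hidden Markov model into 3 states. For each domain the deposited maps give coordinates and a state number but no RT value. Replicate spread is therefore lost, edges are blurred by the smoothing, and the RT limits between states are unknown and can differ between maps. The state numbers carry no E, M or L name in the files.

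Groups were taken from the sample titles, and the other 5 groups were not analysed here. Domains were placed in 20 kb bins without change. In each map the ends of all 20 chromosomes equalled their NCBIM37 (mm9) lengths. Genes came from the GENCODE M1 annotation, placed by their start on their own strand, with 866 protein-coding records on chromosome 13. Sequences were read from the NCBIM37 genome. Agreement was the share of bins in the same state and Cohen's kappa, and shares have Wilson 95% intervals. Edges and runs were compared by position alone. With 1 map per condition no test was made.

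The genes named follow a rule: members of 13 lists found on chromosome 13, protein-coding genes overlapping the 3 longest runs of each class of differing bins, and genes of the longest domain of each state, at most 8 per run or domain. The chromosome, the lists and the rule were chosen with earlier results of these data known. Genes of the 4 CH12 E domains lost in primary B cells were named after their values were seen. Of the listed symbols, 3 had no protein-coding match by that symbol on chromosome 13: *Syk*, *Ccl28* and *Tfap2a*. They are not counted in the lists, which are thus incomplete. *Tfap2a* is annotated as *Tcfap2a*, which overlapped a run from L to M (chr13:40720001-40900000). A symbol with 2 gene records counts as 2. Some genes and a sequence that the rule covers are not reported here. Alternatives covered unknown bases, the first 3 Mb, base pairs, boundaries, short domains, pooled states, 10 Mb windows, run joining and length, gene types and gene midpoints. Leaving out the clustered gene families was chosen after seeing the data. Functions were tested on simulated data, with 7 of 7 checks recovered. Values were computed in Python 3.11.15 with pandas 2.3.3, numpy 2.4.6 and scipy 1.17.1, and plots drawn with matplotlib 3.10.9.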

Additional observations from a re-analysis of the deposited data

How the results depend on the processing

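Of 132 values of 48 results of chromosome 13 under an alternative, 110 stayed within the Wilson interval or, for counts, within 1.5 times the reported value. Some of these had little or no room to move, so the count of 110 does not measure robustness. The first 3 Mb were already absent from the compared bins of chromosome 13. Base pairs differ from bins only in the short last bin, and joining runs changed no count. Agreement rose when bins within 100 kb of a boundary were left out, to 77.37% for CH12 and primary B, 55.68% for CH12 and MEF and 63.83% for primary B and MEF. By construction it rose when states were pooled. E against the other 2 states gave 86.33%, 76.64% and 77.43%, each the lowest autosome, and L against the other 2 gave 81.19%, 70.57% and 79.97%, rank 2, 3 and 3 from the lowest. Without each 10 Mb window in turn, agreement ran from 67.16 to 68.82% (CH12 and primary B), 51.16 to 55.0% (CH12 and MEF) and 57.91 to 61.85% (primary B and MEF). Chromosome 13 was not the lowest for CH12 and primary B without any of 3 of 13 windows, for CH12 and MEF without 2, and for primary B and MEF without 0. It was also second to chromosome 19 for CH12 and primary B without bins of unknown bases (67.83% against 66.83%) or the first 3 Mb (68.03% against 66.62%). Runs from E to M numbered 10 when at least 100 kb long. With all gene types, E starts in primary B cells were 38.12% and L starts in the MEF map 11.88%. Without the clustered families, E starts were 32.45%, 48.38% and 53.83% in CH12, primary B and MEF maps, L starts 20.35%, 9.735% and 6.785%, and M starts in the MEF map 39.38%. No paired analysis was possible because the deposited states come from merged replicates. The files give no read depth, so differences between maps cannot be set against sequencing error.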
